A study of Mus musculus with 6 samples.

Results

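The genes described here are 10 components of the DNA damage checkpoint, chosen by name from the 19680 genes of the deposited table, which holds all 10. They are the kinases Atm, Atr, Chek1, Chek2 and Wee1, the histone variant gene H2afx, the adaptor genes Mdc1 and Nbn, and the ubiquitin ligase genes Rnf8 and Rnf168. RNA was sequenced from germinal center (GC) B cells of C57BL/6 mouse spleen, isolated by sorting B220+ CD38- FAS+ cells. The mice were aged 6 to 8 weeks and received 100 µg of the hapten-protein antigen NP-CGG in the abdominal cavity, and spleens were taken 14 days later. Both groups carry Senp1flox/flox, a Senp1 gene (a SUMO protease) flanked by loxP sites. The 3 WT libraries have no Cre, and the 3 cKO libraries also have Cγ1-Cre, a recombinase expressed from the IgG1 constant region locus in B cells responding to antigen. How many mice went into a library is not stated in the labels, and the p-values therefore rest on the spread among libraries, which may be technical. The labels call the WT and cKO mice paired but do not say which libraries form a pair, and the tests below are unpaired. The comparison asks which transcripts differ in GC B cells when Senp1 is deleted. Only the cKO libraries have Cre, so the presence of Cre and the loss of Senp1 cannot be told apart.

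GC B cells divide fast and carry DNA lesions made by the mutating enzyme AID, so checkpoint signalling is part of their normal life. ATM is activated at double-strand breaks by the complex that contains NBN, and ATR by single-stranded DNA at stalled forks. ATM acts through CHEK2 and ATR through CHEK1, while WEE1 phosphorylates cyclin-dependent kinases and holds cells out of mitosis. At a break ATM and ATR phosphorylate the histone H2AX (gene H2afx), MDC1 binds that mark, and RNF8 and then RNF168 add ubiquitin that recruits repair factors.

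The promoters of the members are shown first, because E2F factors drive many cell cycle genes and 1 short core sequence of theirs recurs in most of the members. RefSeq promoters of GRCm38.p6, 250 bases before to 50 after the start, were matched for 7 of the 10 genes; H2afx, Nbn and Wee1 are the others. The letters GCGGGAA, searched on both strands after these promoters had been read, occurred in 6 of the 7. They occurred in 8.19% of 12314 promoters of genes tested here and in 4.6% of all 32851 promoters, and Atr was the member without them. Each stretch below is 30 bases, 5′ to 3′ on the gene's strand, with the matched letters (GCGGGAA, or TTCCCGC where the match is on the other strand) in capitals.
Chek1, chr9:36726609-36726638, minus strand: cagcatgacgcaagcaggttttgGCGGGAA
Atm, chr9:53536638-53536667, minus strand: tagagccggaaGCGGGAAggcgtgcgtaca
Chek2, chr5:110839820-110839849, plus strand: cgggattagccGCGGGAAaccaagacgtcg
Mdc1, chr17:35841358-35841387, plus strand: tggaaatctgcGCGGGAAgtagtccgtgga
Mdc1, chr17:35841472-35841501, plus strand: cttcagcctgtTTCCCGCcggtagccgcac
Rnf168, chr16:32277414-32277443, plus strand: tagcaggctagGCGGGAAcgcagacgcagc
Rnf8, chr17:29614754-29614783, plus strand: cacctgcgcacTTCCCGCccgcctcccgct
The Chek1 and Atm matches lie just after the RefSeq start, those of Chek2, Mdc1, Rnf168 and Rnf8 before it. In the promoters of 4 of the 7 members the letters CCAAT occurred on either strand (37.8% of promoters of tested genes), in 5 of the 7 GGGCGG (61.0%), and in 1 of the 7, Rnf8, TTTGAA (12.3%). In Rnf8 a GGGCGG match overlaps the GCGGGAA match, and the TTTGAA and CCAAT matches share their edge base. These are matches of letters, not measured binding.

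The libraries held 3019152 to 10339054 gene-assigned reads, and cKO replicates 2 and 3 were the shallowest. Senp1 measured 868 to 915 normalized counts (reads divided by a size factor of the library) in WT and 373 to 425 in cKO, a 2.24-fold difference that goes with the labels (limma adjusted p = 0.111). At the threshold of 0.05 used below, limma therefore did not call the deleted gene itself. In the authors' deposited table Senp1 had a log2 fold change of -1.17 and an adjusted p of 2.38e-09. Of 14 listed GC B cell genes, 13 were detected in every library, among them the sort genes Ptprc (6039 to 8396) and Fas (456 to 604), while Mef2b was at or near 0 (0 to 5.69). Cd38, low in the sorted cells, measured 22.8 to 157.5. Replicate 1 of both groups stood apart from the other libraries on the first principal component, and cKO replicate 2 held more transcripts of other cells. Its 12 T cell markers summed to 1959 normalized counts against 543 to 843 in the other libraries, and its 10 naive or memory B markers to 8913 against 1657 to 4208. Most of the T cell sum in the other libraries was Lck, which varied little (470 to 574 there and 691 in cKO replicate 2). The T cell markers Cd3d, Cd3g and Cd8a were at 0 in cKO replicate 3 and at 93.0 to 133 in cKO replicate 2. In bulk RNA, fewer cells of a type and less RNA per cell cannot be told apart.

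None of the 10 genes passed the test between genotypes, and Atm was the 1 gene whose cKO libraries all lay apart from the WT libraries. The test was limma on log2(normalized count + 1) over 14678 genes with a mean of at least 1, with Benjamini-Hochberg adjusted p under 0.05 as the call. It called 0% of all genes, so 0 calls among the 10 says nothing particular to them. At an unadjusted p under 0.05 limma had 756 genes (5.15%), edgeR on the recovered reads called 0 with 611 at that level, and limma-voom called 0 with 558. DESeq2 on the same reads called 23 (0.197% of the 11658 genes to which it gave an adjusted p), none of them a member. In the authors' deposited table the members' adjusted p-values were 0.997 to 1.00, where 0.197% of genes with an adjusted p are called. Groups without overlap were seen for 1 of the 10 genes, lower in cKO, and for 11.6% of all genes tested (5.28% lower in cKO).

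**Figure D1:**
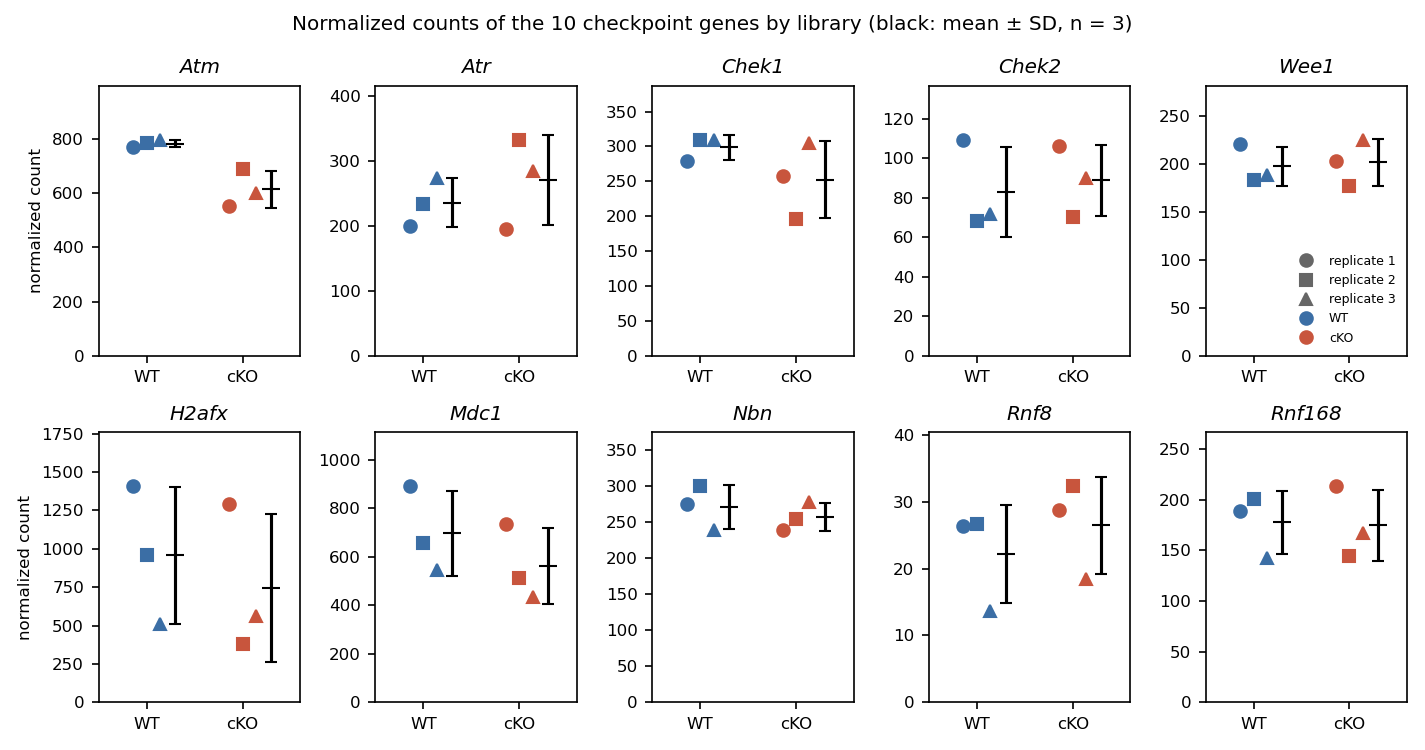
Normalized counts of each of the 10 genes (vertical axes from 0, a scale for each gene) in the 3 WT and 3 cKO libraries, with the marker showing the replicate and the black bars the mean ± SD (n = 3). Atm has all cKO points below all WT points, while H2afx spans 380 to 1405 with replicate 1 of both groups on top.

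Atm encodes the kinase that signals double-strand breaks (ENSMUSG00000034218, chr9 53439149 to 53536740 of GRCm38, minus strand). Its normalized counts were 769, 784 and 796 in WT and 554, 689 and 603 in cKO. Values for a group are given in the order of replicates 1 to 3 throughout. The WT libraries were within a few percent of each other, and every cKO library was below them. The difference was -21.7% (95% confidence interval -36.3% to -3.91%), a log2 difference of -0.35 ± 0.13 (SE), with an unadjusted limma p of 0.0245 and an adjusted p of 0.915. It was -0.47 within replicate 1 and -0.29 within replicates 2 and 3, and between -0.44 and -0.28 when any single library was left out. In those fits the unadjusted limma p was 0.0119 without cKO replicate 2 and 0.0482 without WT replicate 1. Without any 1 of the other libraries it was 0.0575 to 0.0806. An unadjusted p under 0.05 with a lower cKO value was reached by 2.17% of all genes. Atm has a long transcript, 9.82 kb in 62 exons, and over the 646 tested genes with a transcript of at least 8 kb the median log2 difference was -0.11, with 425 of them negative. The part of transcript length in the Atm value was not tested.

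Atm starts head to head with Npat, a coactivator of histone gene transcription, with 307 bases between the annotated starts. The 181 bases upstream of the Atm start, chr9:53536741-53536921 (GRCm38.p6, minus strand, 5′ to 3′), lie between both genes and are shown as the upstream sequence they share, with a GGGCGG match and a CCAAT match on the other strand in capitals.
Atm and Npat: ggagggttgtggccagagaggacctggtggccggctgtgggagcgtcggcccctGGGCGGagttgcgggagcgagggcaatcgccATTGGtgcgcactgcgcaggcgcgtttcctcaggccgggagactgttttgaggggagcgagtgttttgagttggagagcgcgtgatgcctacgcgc
Npat, named for its position, measured 355, 411 and 431 in WT and 307, 363 and 413 in cKO. Unlike Atm its groups overlapped, and the log2 difference was -0.15 (95% confidence interval -0.51 to 0.21, limma adjusted p = 0.941). A difference between the Atm and Npat values was not tested. Chek2 likewise starts 202 bases from Hscb, a mitochondrial cochaperone gene, which measured 80.9, 74.5 and 86.3 in WT and 89.5, 79.7 and 57.2 in cKO.

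Atr encodes the kinase of replication stress (ENSMUSG00000032409, chr9 95857597 to 95951781, plus strand). Its 3 WT libraries measured 199, 233 and 274, and its 3 cKO libraries 195, 332 and 284, so replicate 1 was lowest in both groups and the groups overlapped. The log2 difference was 0.18 (95% confidence interval -0.33 to 0.69, limma adjusted p = 0.951), which spans changes from -20.6% to 60.9%. It was -0.029 within replicate 1, 0.28 within replicates 2 and 3, and 0.012 without cKO replicate 2.

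Chek1, the kinase that ATR activates, is on chr9 at 36708482 to 36727065 (ENSMUSG00000032113, minus strand). Its counts were 279, 309 and 309 in WT and 258, 195 and 304 in cKO. Only cKO replicate 2, the library with the most T cell and naive B transcripts, was far below the rest. The same library had the fewest reads and the lowest levels of the listed mitotic and replication genes (median deviations -0.86 and -0.47 log2 units). The log2 difference of -0.26 (95% confidence interval -0.69 to 0.16, limma adjusted p = 0.928) was -0.091 without that library. The part of other cells, depth or cell cycle state in this value was not tested.

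Chek2, the kinase that ATM activates (ENSMUSG00000029521, chr5 110839979 to 110874145, plus strand), measured 109, 68.1 and 71.8 in WT and 106, 70.2 and 89.9 in cKO. Replicate 1 was highest in both groups. Its libraries were also the deepest, so their 216 and 196 reads, against 37 to 84 in the others, overstate the difference in level. The log2 difference was 0.11 (95% confidence interval -0.50 to 0.71, limma adjusted p = 0.976), and its sign turned without WT replicate 2 (-0.016) or cKO replicate 1 (-0.030).

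Wee1, the mitosis-blocking kinase (ENSMUSG00000031016, chr7 110122046 to 110143286, plus strand), was among the steadiest of the 10 genes. It measured 221, 183 and 188 in WT and 203, 177 and 225 in cKO, a range of 1.27-fold over the 6 libraries. The log2 difference was 0.027 (95% confidence interval -0.35 to 0.41, limma adjusted p = 0.993), and with library totals as the scaling it was -0.052. The interval leaves room for changes from -21.8% to 32.7%.

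H2afx had the widest spread of the 10 genes and no separation by genotype. The gene has a single exon of 1.38 kb (ENSMUSG00000049932, chr9 44334694 to 44336077, plus strand). Its counts were 1405, 958 and 513 in WT and 1292, 380 and 560 in cKO, a 3.70-fold range. Replicate 1 of both groups was on top, and the ranges of WT and cKO overlapped almost fully. The log2 difference was -0.44 (95% confidence interval -1.52 to 0.63, limma adjusted p = 0.941), and it ran from -0.94 without cKO replicate 1 to -0.056 without cKO replicate 2. H2afx belongs to a family of similar histone H2A genes, and its level is uncertain to the extent that reads match several of them, since their treatment is not stated.

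The libraries held H2afx in the order of their mitotic transcripts. The median deviation of 20 listed mitotic genes from their mean over the libraries was 0.71, 0.31 and -0.32 log2 units in the WT libraries and 0.44, -0.86 and -0.19 in the cKO libraries. From highest to lowest, both measures gave WT replicate 1, cKO replicate 1, WT replicate 2, cKO replicate 3, WT replicate 3 and cKO replicate 2. Atr ran the other way, with its highest value in cKO replicate 2 and its lowest values in replicate 1 of both groups. Other members varied with these 2 genes over the 6 libraries. H2afx had a Pearson r of 0.90 with Rnf168 and 0.88 with Mdc1, and Atr had -0.87 with each. Of the 45 pairs of members, 29 had an r above 0. Atm did not follow the mitotic order: cKO replicate 1, with the second highest mitotic level, had the lowest Atm count. These libraries also differ in depth and in the mitochondrial share of reads, which was 2.71% and 3.66% in replicate 1 of WT and cKO and 7.92% to 19.1% in the others. The part of cell cycle state, depth or RNA quality in the H2afx, Atr, Mdc1 and Rnf168 values was not tested.

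**Figure D2:**
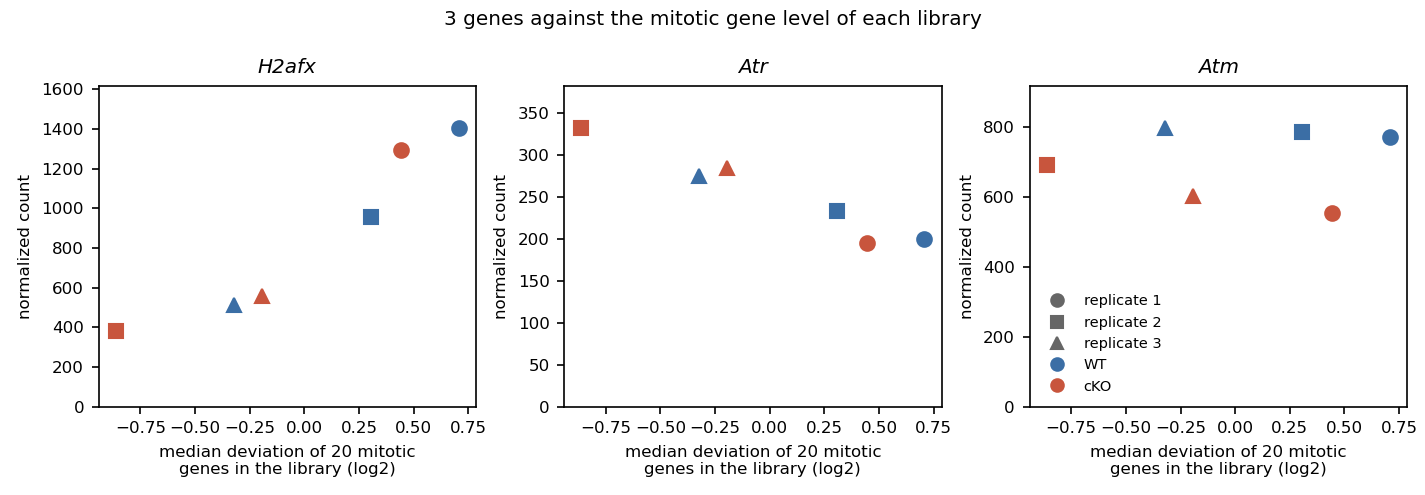
Normalized counts of H2afx, Atr and Atm (vertical axes, from 0) against the median log2 deviation of 20 mitotic genes in the same library (horizontal axes), 1 point per library. H2afx goes from 380 in the library with the lowest mitotic level to 1405 in that with the highest, Atr is highest in the former, and the 3 cKO points of Atm, at 554 to 689, lie below the 3 WT points, at 769 to 796.

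Mdc1 encodes the adaptor that reads phosphorylated H2AX (ENSMUSG00000061607, chr17 35841515 to 35859670, plus strand). It measured 890, 656 and 548 in WT and 737, 514 and 435 in cKO. At each replicate number the cKO library was below the WT library, while the groups as a whole overlapped because replicate 1 was high in both. The log2 difference was -0.32 (95% confidence interval -0.86 to 0.22, limma adjusted p = 0.930). It was -0.27 within replicate 1 and -0.34 within replicates 2 and 3, and -0.13 without WT replicate 1. A term for replicate 1 left it uncalled (adjusted p = 0.511).

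Nbn, a subunit of the complex that binds broken ends and activates ATM (ENSMUSG00000028224, chr4 15957925 to 15992589, plus strand), had the narrowest range of the 10 genes at 1.26-fold. It measured 275, 299 and 238 in WT and 239, 254 and 278 in cKO. The groups overlapped, with a log2 difference of -0.072 (95% confidence interval -0.42 to 0.28, limma adjusted p = 0.972).

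Of the 10 genes Rnf8 had the fewest reads. Rnf8, a ubiquitin ligase gene whose product starts the ubiquitin signal (ENSMUSG00000090083, chr17 29614790 to 29644991, plus strand), had 9 to 53 reads per library and its normalized counts were 26.3, 26.6 and 13.7 in WT and 28.7, 32.3 and 18.4 in cKO. Replicate 3 was lowest in both groups, and at 9 reads counting error alone is 33.3%. The log2 difference of 0.26 had a 95% confidence interval of -0.65 to 1.18 (limma adjusted p = 0.962). That interval includes a log2 difference of the size seen in Atm, in either direction. Of the Rnf8 exon length, 13.2% is shared with Gm28043, a gene on the same strand with 1.90 to 14.3 normalized counts. Reads from that part may not all be counted for Rnf8, since their treatment is not stated.

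Rnf168, which extends the ubiquitin signal on H2A (ENSMUSG00000014074, chr16 32277459 to 32301434, plus strand), had 76 to 393 reads. It measured 189, 201 and 143 in WT and 213, 144 and 167 in cKO, overlapping groups. Its log2 difference of -0.025 (95% confidence interval -0.51 to 0.46, limma adjusted p = 0.993) turned sign in limma-voom (0.056) and without WT replicate 1 (0.027), WT replicate 2 (0.072) or cKO replicate 2 (0.10).

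**Figure D3:**
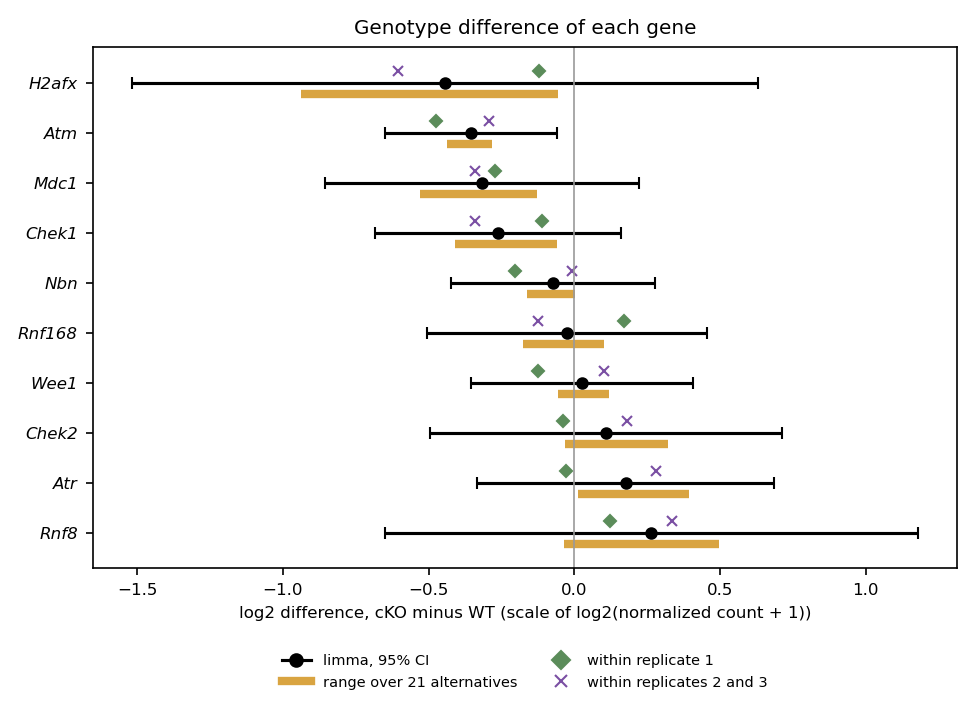
Log2 difference of each gene, cKO minus WT, with its 95% confidence interval from limma (black), its range over 21 other settings (ochre) and the differences within replicate 1 (green) and within replicates 2 and 3 (purple). The interval of Atm, -0.65 to -0.058, is the 1 interval that does not reach 0, before adjustment over 14678 genes.

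Per length of exon, H2afx was the most abundant of these transcripts and Rnf8 the least. Over the 6 libraries the median was 548 normalized counts per kb for H2afx (274 to 1015) and 2.26 for Rnf8 (1.17 to 2.76). Below H2afx came Nbn at 104.5 per kb (94.1 to 118), Mdc1 at 81.1, Atm at 70.5, Chek1 at 62.9 and Wee1 at 57.1, and each overlapped the next of these. Rnf168 (40.0, range 32.0 to 47.8) lay below Wee1 in every library, and Chek2 (26.9, range 22.7 to 36.4) overlapped Rnf168. Atr was at 10.7 per kb (8.26 to 14.1), below every Chek2 value. That place depends on the gene model, since the annotated Atr exons add up to 23.6 kb and the longest coding transcript is 8.10 kb. With the latter as length, chosen after the data were seen, Atr was at 31.3 per kb (24.1 to 41.0), overlapping Chek2 at 35.5, and Chek1 (76.8) was placed above Atm (74.3). H2afx stayed first and Rnf8, at 4.89 per kb, last.

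**Figure D4:**
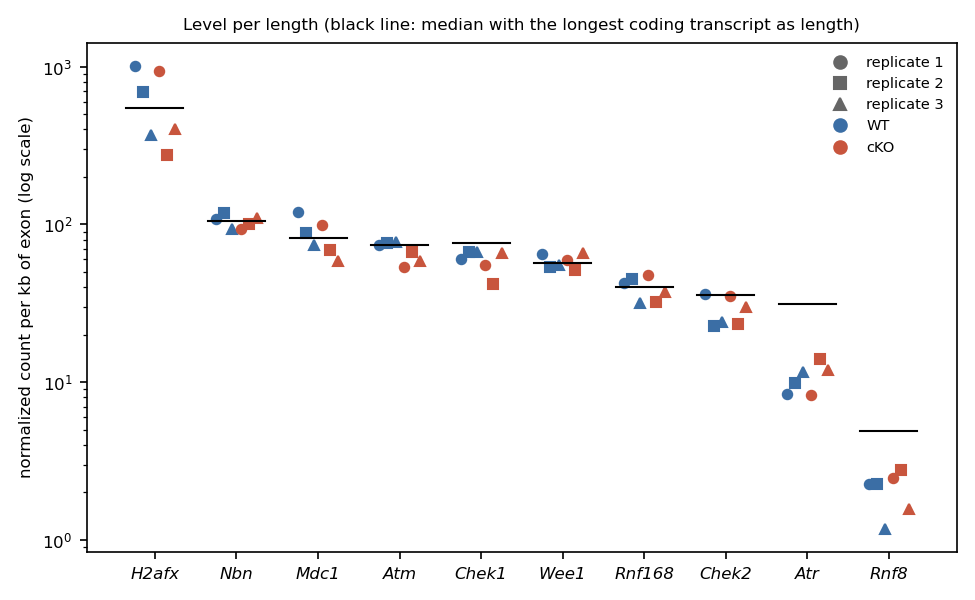
Normalized count per kb of annotated exon for the 10 genes (log axis), 1 point per library, in order of the median, with a black line at the median when the longest coding transcript is the length. H2afx, at 274 to 1015 per kb, lies above all others, and Atr moves from 10.7 to 31.3 per kb with the length chosen.

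The other genes of the pathway gave no call in either direction, like all genes tested. Of all 14678 genes, 7375 (50.2%) had a negative log2 difference and the median was -0.0019. For the 10 members these were 6 genes and -0.049, and with single libraries left out their median was -0.17 (without WT replicate 3) to -0.016 (without WT replicate 1). The list medians also moved with single libraries, as given beside each. Of all 14678 genes, 775 (5.28%) were lower in cKO without overlap and 922 were higher without overlap. The genes named below as without overlap stand beside these shares.

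Of 7 genes of break sensing and ATM activation, 6 had negative log2 differences (median -0.12, from -0.24 without WT replicate 3 to -0.096 without WT replicate 2). Rad50, which with NBN and the nuclease MRE11 binds broken ends, measured 538, 595 and 519 in WT and 471, 503 and 437 in cKO, without overlap (log2 difference -0.23, limma adjusted p = 0.926). Rbbp8, a cofactor of end resection, measured 400, 425 and 352 in WT and 343, 304 and 302 in cKO, also without overlap (-0.31, limma adjusted p = 0.915). They were 2 of the 7 genes, beside 5.28% of all genes tested that were lower in cKO without overlap. Mre11a itself overlapped between groups (-0.26).

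Of 15 genes of ATR activation and fork protection, 13 were negative (median -0.14). Without cKO replicate 2 this median was 0.015, and without cKO replicate 1 it was -0.27. Topbp1, the activator of ATR, measured 1771, 1979 and 1690 in WT and 1622, 1260 and 1556 in cKO. This was the 1 gene of the 15 whose groups did not overlap (log2 difference -0.30, limma adjusted p = 0.915). Of all genes tested, 5.28% were lower in cKO without overlap, so 1 of 15 says nothing particular to this list. Rad9a, with the next smallest p, overlapped and went the other way (log2 difference 0.22). It measured 356, 296 and 339 in WT and 368, 340 and 449 in cKO. Clspn, the adaptor between ATR and CHEK1, also overlapped, with 1156, 1066 and 719 in WT and 990, 469 and 876 in cKO.

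Of 7 chaperone genes that fold ATM, ATR and related kinases, 3 were negative (median 0.0032, from -0.17 without cKO replicate 1 to 0.17 without WT replicate 1). Telo2, which binds these kinases and keeps them stable, measured 145, 133 and 120 in WT and 179, 175 and 192 in cKO. All cKO values lay above all WT values, and the log2 difference was 0.46 (95% confidence interval 0.084 to 0.83, unadjusted p = 0.0219, limma adjusted p = 0.915). Telo2 was the 1 gene of the 7 without overlap, beside 922 of all 14678 genes that were higher in cKO without overlap. Its partner Tti1 overlapped between groups, at 339 to 444 in WT and 292 to 412 in cKO (-0.21).

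Of 21 tested genes that read, write or erase ubiquitin at breaks, 16 were negative (median -0.093, and -0.013 without WT replicate 2). Groups did not overlap for 4 of the 21, all lower in cKO, where 5.28% of all genes tested did so. Rif1, which protects broken ends from resection, measured 680, 842 and 782 in WT and 585, 642 and 621 in cKO (log2 difference -0.31, limma adjusted p = 0.915). Trip12, a ubiquitin ligase that limits RNF168, measured 2308, 2436 and 2304 in WT and 2109, 2088 and 1908 in cKO (-0.21, limma adjusted p = 0.924). Bre, a subunit of the BRCA1-A deubiquitinase complex, named after its values were seen, was also without overlap, at 144 to 161 in WT and 129 to 142 in cKO. The groups of Rnf169, an RNF168 relative, overlapped, at 142 to 149.5 and 114 to 144.

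Of 10 CDK control genes, 9 were negative (median -0.36). The list holds genes of CHEK1 and WEE1 targets beside cyclin genes, Pkmyt1 and Plk1. This median was -0.019 without cKO replicate 2, -0.12 without WT replicate 1, -0.64 without WT replicate 3 and -0.71 without cKO replicate 1. Their median deviation per library (0.58, 0.21 and -0.29 in WT and 0.49, -0.86 and -0.13 in cKO) had the order of the mitotic genes. The lists share no gene, but CDK control genes such as Cdk1 also act in mitosis, so these orders are not independent. No gene of the list was called, and the 20 mitotic genes were all negative (median -0.45), as were 19 of 20 replication genes (median -0.27). Without cKO replicate 2 the mitotic median was -0.088 and the replication median -0.12, and without cKO replicate 1 they were -0.74 and -0.46. Cdk1, the kinase that WEE1 inhibits, measured 1024, 658 and 396 in WT and 881, 264 and 433 in cKO. The libraries stood in the same order as for H2afx. Cdc25a, the phosphatase that CHEK1 targets for destruction, was the 1 gene of this list whose groups did not overlap, with 456, 436 and 409 in WT and 407, 313 and 400.3 in cKO (limma adjusted p = 0.928). That is 1 gene of 10, beside 5.28% of all genes tested that were lower in cKO without overlap.

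All 7 phosphatase genes that act in recovery from the checkpoint were negative (median -0.17, from -0.27 without WT replicate 1 to -0.12 without WT replicate 2). Ppp4r2, the regulatory subunit of a phosphatase that removes the H2AX mark, measured 1695, 2156 and 1899 in WT and 1529, 1342 and 1393 in cKO. The groups did not overlap and the log2 difference was -0.43 (95% confidence interval -0.74 to -0.12, unadjusted p = 0.0127, limma adjusted p = 0.915). Ppp4r2 was the 1 gene of the 7 without overlap, beside 5.28% of all genes tested that were lower in cKO without overlap. Of 4 tested genes of other H2A variants, 3 were negative (median -0.19). Without cKO replicate 2 this median was -0.026, without WT replicate 1 it was -0.061, and without WT replicate 3 it was -0.35. H2afz, the most abundant of those shown, stood at 2259, 2020 and 1369 in WT and 2080, 1181 and 1493 in cKO, with replicate 1 high in both groups as for H2afx.

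**Figure D5:**
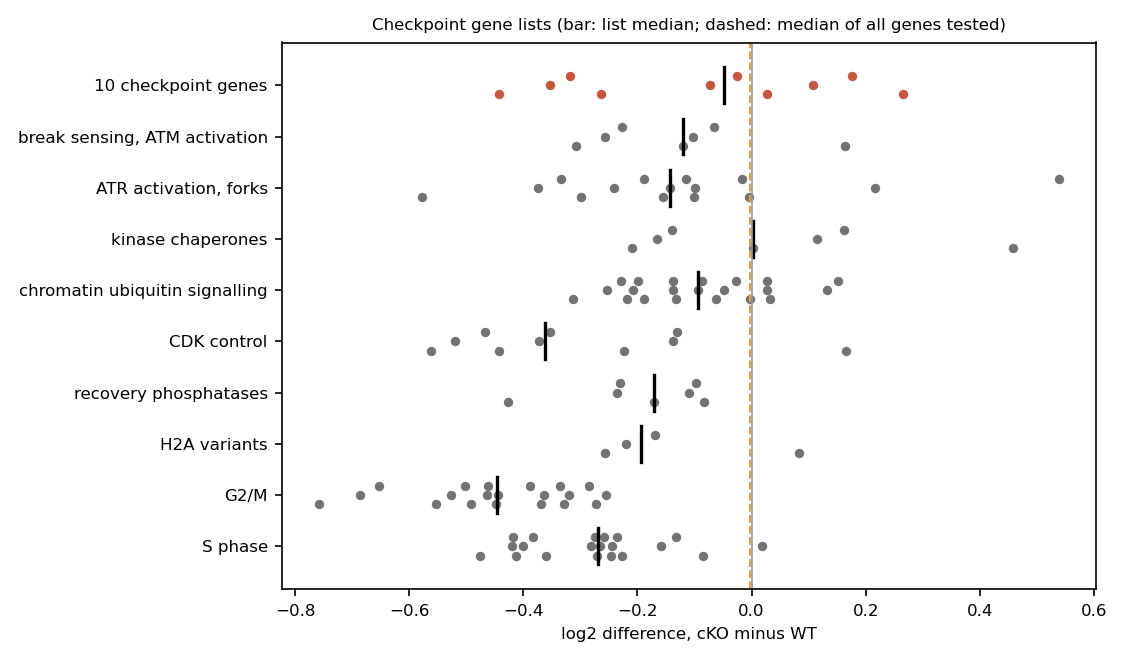
Log2 difference, cKO minus WT, of each tested gene in each list (points), with the list median (black bar) and the median of all genes tested (dashed line, -0.0019). The medians run from 0.0032 for the kinase chaperones to -0.45 for the mitotic (G2/M) genes, and the 10 checkpoint genes lie at -0.049.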

How the data were processed

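RNA from 3 WT and 3 cKO libraries was sequenced. DESeq2, HTSeq, SAMtools, TopHat2, HISAT, HISAT2 and mm10 appear in the submitters' processing notes without versions or roles, and the sources used here give no annotation release or strand setting. The authors deposited a signal per gene and library (counts divided by a size factor) beside their log2 fold change, test score and p-value, per the file headers. All values were whole multiples of a column's smallest value (100%, within 0.01 read), so reads were recovered.

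The planned test was limma 3.58.1 (R 4.3.3, trend, genotype alone) on log2(value + 1) for genes with a mean of at least 1, and a log2 difference on this scale understates the change of low genes. edgeR 4.0.16, DESeq2 1.42.0 and limma-voom ran on recovered reads. limma, edgeR and DESeq2 were tested on simulated data. Gene positions and lengths are from GENCODE M21 (GRCm38), in which 19563 identifiers were found.

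The members, gene lists and tests were chosen with earlier results of these data known. Named genes are the members, Senp1, the sort genes, marker genes near 0, up to 4 genes of smallest p per list, and the 3 genes most like each of the 2 members of smallest p. The confidence intervals are from limma and rest on the spread among libraries, as the p-values of limma do. A separate counting error is given only for Rnf8, from its reads, and no source mentions molecular identifiers. The labels' protocols call the mice paired without tying the replicate numbers to pairs, and same-numbered libraries did not all deviate together, so replicate numbers were not treated as pairs. The values of 1 gene in the list of ubiquitin signalling at breaks are not reported here.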

Additional observations from a re-analysis of the deposited data

How the results depend on the processing

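None of the 10 genes was called under any of 21 alternatives, and Atm, Atr, Chek1, H2afx and Mdc1 kept their sign in all of them. Over these the limma, edgeR, DESeq2 or limma-voom adjusted p of Atm ran from 0.310 to 1.00 and its log2 difference from -0.44 to -0.28. The number of members with a negative log2 difference was 5 to 8 when single libraries were left out, 7 with library totals and 5 by limma-voom. Signs turned in 13 of 210 values. With single libraries left out the log2 difference ranged from -0.030 to 0.32 for Chek2, -0.036 to 0.50 for Rnf8, -0.18 to 0.10 for Rnf168, -0.16 to 0.0021 for Nbn and -0.055 to 0.12 for Wee1. Beyond these, Rnf168 was 0.056 by limma-voom and Wee1 -0.052 with library totals. With a term for replicate 1 and cKO replicate 2 left out, chosen after the data were seen, Rnf168 was 0.064. The cause of these turns was not tested.

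Over all genes limma called 0 higher and 0 lower. There was 1 higher with no trend, 2 higher and 1 lower with a term for replicate 1, and 4 higher and 9 lower when cKO replicate 2 was also dropped. DESeq2 called 16 higher and 7 lower. With the replicate block limma called 1 higher and 0 lower, and 1333 genes against 756 had an unadjusted p under 0.05. In that fit the limma adjusted p was 0.465 for Atm and 0.471 for Mdc1. The correlation of deviations between same-numbered libraries was 0.49, 0.055 and 0.20, and WT replicate 2 and cKO replicate 2 each correlated better with another number than with their own. Genes at an unadjusted p under 0.05 numbered 343 without WT replicate 2 and 1359 without cKO replicate 1. Rnf8 and Chek2 had the fewest reads of the members, as few as 9 (cKO replicate 3) and 37 (cKO replicate 2).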

Other observations

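Within a library, the ratio of Atm to Atr does not depend on the scaling of libraries. The WT libraries had 3.86, 3.36 and 2.90 and the cKO libraries 2.84, 2.07 and 2.12, so every cKO library was below every WT library. The pair was chosen after the values were seen, and an exact two-sided permutation test gave p = 0.1, the smallest possible with 3 against 3. The ratio of Chek1 to Chek2, of the kinases they act through, overlapped between groups at 2.55, 4.53 and 4.31 in WT and 2.43, 2.78 and 3.39 in cKO (exact permutation p = 0.3). For Mdc1 to H2afx the WT libraries had 0.633, 0.684 and 1.07 and the cKO libraries 0.571, 1.36 and 0.777 (exact permutation p = 0.7). Adjusted over these 3 ratios by Benjamini-Hochberg, the permutation p-values were 0.3, 0.45 and 0.7.

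Among 6762 genes with a mean of at least 100, the pattern most like that of Atm over the 6 libraries belonged to Dock9, an activator of the GTPase CDC42 (Pearson r = 0.995). It measured 231, 247 and 245 in WT and 132, 190 and 143 in cKO. Next were the histone acetyltransferase gene Kat2b (r = 0.989) and the ion cotransporter gene Slc12a2 (r = 0.987), and none of their groups overlapped. For Chek1 the nearest genes were the RNA processing genes Thoc7 (r = 0.983), Lsm1 (r = 0.980) and Tardbp (r = 0.979), each with its lowest value in cKO replicate 2. These coefficients are descriptions over 6 libraries that share depth and cell makeup, picked as the highest of 6762.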
